A study of Gallus gallus with 8 samples.

Results

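The comparison described here sets whole cornea of chicken embryos at embryonic day 18 (E18) against whole retina at embryonic day 8 (E8), and its members are 4 of the 8 RNA sequencing libraries of the study, 2 for each tissue. All embryos came from untreated fertilized eggs of a Cobb and Hubbard F1 cross kept under normal incubation, and no allele or agent separates the groups. The cornea was cut free at the limbus, and the retina was freed of its pigment epithelium by incubation in a medium without calcium or magnesium. The other 4 libraries, retina at E16 and E18, entered the fit for the spread between replicates, and their values are given where they help to place a gene. Tissue and age differ together in this comparison, so an effect of the one cannot be told apart from an effect of the other. The libraries were biological duplicates of tissue in which no cell type was enriched, so that fewer cells of a type and less RNA per cell cannot be told apart in any value below.

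The 2 tissues meet at the front of the eye but have different origins. The retina grows out of the neural tube, and at E8 it still holds dividing progenitors beside ganglion cells and other young neurons. The cornea consists of an epithelium derived from surface ectoderm, a stroma of collagen lamellae and leucine-rich proteoglycans laid down by neural crest cells, and a single inner layer of crest-derived endothelium. The transcription factor PAX6 acts both in the optic cup and in the ectoderm that forms lens and corneal epithelium. The comparison thus asks what a late embryonic cornea and an early proliferating neural tissue express in common and what sets them apart.

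The 4 libraries held 15662779 and 25481358 reads on genes for cornea replicates 1 and 2, and 45670254 and 27107459 for E8 retina. The 3 reads taken as the detection floor correspond to 5.53 normalized counts in the shallower cornea library and to 2.94 in the shallower E8 library, where a normalized count is the read count divided by the size factor of the library. Within a group, 6.59% of the genes tested differed more than 2-fold between the cornea replicates and 7.34% between the E8 replicates. The 100 genes with the most reads took 31.2% and 32.9% of the cornea reads but 18.2% and 19.1% of the E8 reads. The markers go with the labels. The corneal keratin KRT12 was at 278539 and 256680.1 normalized counts in cornea and 8.79 and 16.7 in E8 retina, while the retinal progenitor factor SIX6 was at 5.53 and 8.6 in cornea and 10303 and 12143 in E8 retina. Of the 16700 rows of the table, 1861 are listed at 0 in all 8 libraries. Of these, 1153 stand in a stretch of 1155 consecutive rows that includes KRT5, COL2A1, OCLN, DNMT1 and LIG1, and these genes were treated as not measured. A gene listed at 0 elsewhere in the table may not have been expressed.

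Cornea replicate 2 stood apart from replicate 1 in genes of young neurons and glia, and the reason was not tested. Of the 13 young neuron genes tested, 12 were higher in replicate 2 and 6 of these by more than 2-fold, and 5 of 6 Schwann and oligodendrocyte genes and all 6 Müller glia genes were also higher there. So were 7 of 8 pigment epithelium genes and 6 of 9 lens genes, 3 of them in each list by more than 2-fold. In the pigment epithelium list 1 gene was more than 2-fold higher in replicate 1. In other neural lists a smaller share of genes was higher in replicate 2. These were 7 of 14 eye field and progenitor factors, 4 of 9 photoreceptor genes and 3 of 9 Notch and proneural genes. By more than 2-fold, 4 eye field and progenitor factors were higher in replicate 2 and 1 in replicate 1. For photoreceptor genes these counts were 2 and 1, and for Notch and proneural genes 1 and 0. Over all 13194 genes tested, 6587 were higher in replicate 2, and 547 were more than 2-fold higher in replicate 2 and 322 in replicate 1. Chosen after their values were seen, the synaptic gene SNAP25 was at 249 and 1117 normalized counts in cornea replicates 1 and 2, the membrane glycoprotein gene GPM6A at 244 and 2179 and the myelin gene MBP at 1468 and 6239. The glial filament gene GFAP was at 81.2 and 353 in cornea and at 24.2 to 56.4 in E16 and E18 retina, so that its cornea values lay above those of all the retina libraries. Leaving out 1 cornea library moved the log2 difference of GFAP, which ran from 4.20 (cornea replicate 2 left out) to 6.30 (cornea replicate 1 left out), of SNAP25, which ran from -4.12 (cornea replicate 2 left out) to -1.96 (cornea replicate 1 left out), and of GPM6A, which ran from -6.81 (cornea replicate 2 left out) to -3.66 (cornea replicate 1 left out). Without cornea replicate 2, 9469 genes were called instead of 9812, and where this library moved a value named below by more than 1.5-fold, the value without it is given too.

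Of the 14631 genes with reads in the 4 libraries, 13194 passed the filter on low counts and were tested with limma on log2(normalized count + 1), with Benjamini-Hochberg adjustment over all of them. With an adjusted p under 0.05, 9812 genes were called, 74.4% of those tested. The calls divided almost evenly, with 4934 genes (37.4%) higher in cornea and 4878 (37%) higher in E8 retina. A difference of at least 2-fold was found for 6866 genes, of which 3857 were higher in cornea and 3009 in E8 retina. The median absolute log2 difference of the called genes was 1.56. These counts include chromosome Z and the 16 rows before it. Outside them, 9305 of 12543 genes were called, 4734 higher in cornea and 4571 in E8 retina. Of 494 genes written into lists by role or cell type, 432 matched a row of the table, 25 of these were at 0 in all libraries, 4 did not pass the filter and 403 were tested, and counts below are of tested genes. With so many genes called, the share called in any group of genes has to be read against these background shares.

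Most genes were on in both tissues and differed in level. At 1 CPM or more (reads scaled to the library total on genes) in both libraries of a group, 11547 genes were expressed in cornea and 10542 in E8 retina, and 9999 were expressed in both, which is 86.6% of the cornea genes and 94.8% of the E8 genes. Fewer genes were on in one tissue alone, with 411 expressed in cornea that had at most 3 reads in each E8 library and 89 the other way round. As a description over 12543 genes outside chromosome Z, the rank correlation between a cornea and an E8 library was 0.682 to 0.701, against 0.639 to 0.668 with E16 retina and 0.625 to 0.653 with E18 retina. The median absolute log2 difference ordered the groups the other way, with 1.08 to 1.13 between cornea and E8 libraries and 0.969 to 1.06 between cornea and late retina libraries, so that the order of closeness depended on the measure.

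**Figure D1:**
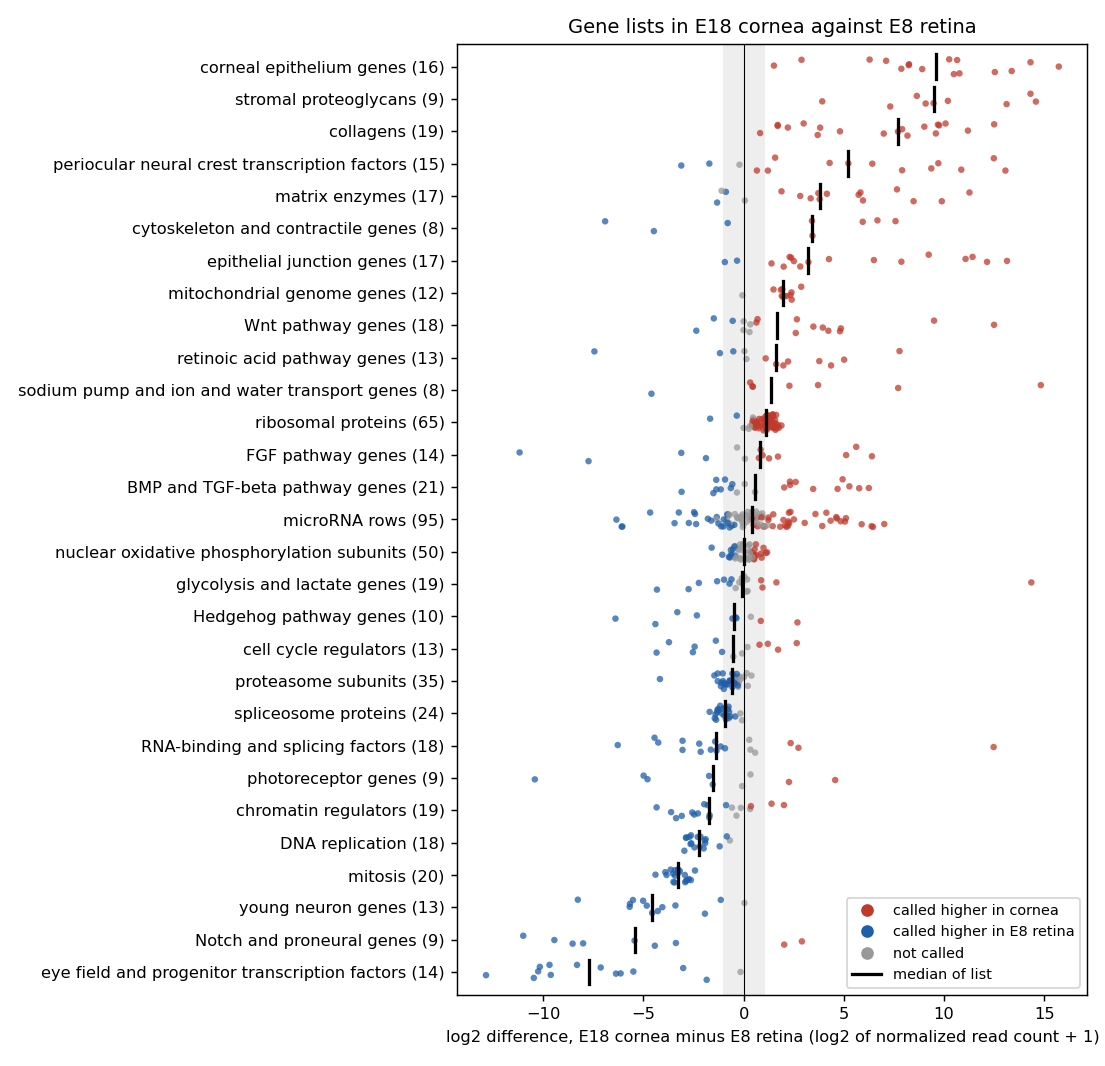
Log2 difference between E18 cornea and E8 retina (x axis, log2 of normalized count + 1) for the tested genes of each list, 1 point per gene, with the number tested in brackets, the median as a bar and the range from -1 to 1 shaded. The medians run from -7.72 for eye field and progenitor transcription factors to 9.58 for corneal epithelium genes, and the medians of glycolysis genes and of nuclear oxidative phosphorylation subunits lie close to 0, although single glycolysis genes lie far from it on both sides.

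All 16 corneal epithelium genes tested were higher in cornea, with a median log2 difference of 9.58, or 9.06 with the 2 genes at 0 in E8 retina set to their lower bound. Over all genes tested the median was -0.01. KRT12, the keratin that marks differentiated corneal epithelium, had 278539 and 256680.1 against 8.79 and 16.7 normalized counts in cornea and E8 retina (log2 difference 14.31, SE 0.41, limma adjusted p = 2.3e-08). KRT15, a keratin of basal and limbal epithelial cells, had 37946 and 40262 against 1.76 and 3.92 (log2 difference 13.37, SE 0.37, limma adjusted p = 2.0e-08). The basal keratin KRT14 had 4992 and 5114 against 1.17 and 6.86 (log2 difference 10.26, SE 0.61, limma adjusted p = 8.6e-07), and its difference ran from 9.33 (E8 replicate 1 left out) to 11.18 (E8 replicate 2 left out). In each of these genes the cornea libraries were close to each other and both E8 libraries were at 16.7 normalized counts or fewer.

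The transcription factors that build a surface epithelium stood with the keratins. TP63, needed for stratified epithelia, had 2957 and 2293 normalized counts in the cornea libraries and 6.44 and 2.94 in the E8 libraries (log2 difference 8.91, SE 0.41, limma adjusted p = 2.2e-07). KLF5, a factor of epithelial growth, had 5654 and 7084 against 2.93 and 2.94 (log2 difference 10.65, SE 0.22, limma adjusted p = 5.6e-09). KLF4, a factor of late epithelial differentiation that lies on chromosome Z, had 9703 and 6825 against 58.00 and 57.8 (log2 difference 7.11, SE 0.25, limma adjusted p = 5.3e-08). The epithelial ETS factor EHF had 1596 and 1904 in cornea and no read in E8 retina, at least 595-fold higher (limma adjusted p = 9.2e-08). The smallest difference of the list was that of the grainyhead factor GRHL3, with 1149 and 794 against 280.1 and 399 (log2 difference 1.51, SE 0.24, limma adjusted p = 4.3e-04). The splicing regulator of epithelia ESRP2 had 7779 and 6582 against 1 read in all of E8 retina, a ratio of 19254 (counting interval 3455 to 760588). Its relative ESRP1 differed less, with 1854 and 1527 against 226 and 280.3 (log2 difference 2.74, SE 0.29, limma adjusted p = 3.5e-05).

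**Figure D2:**
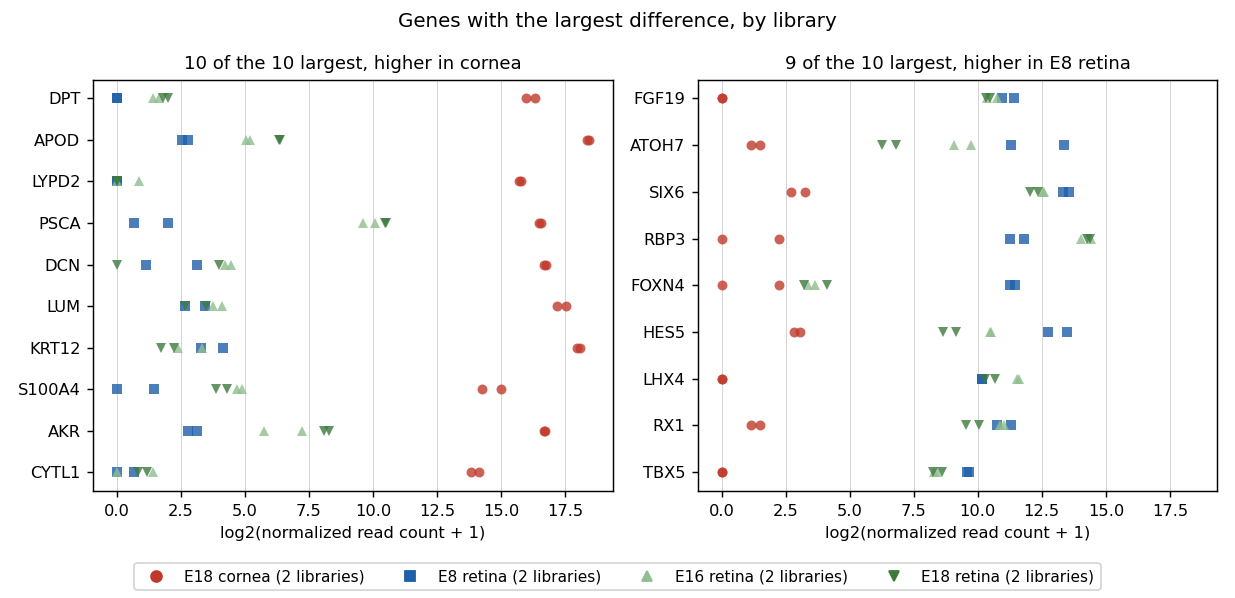
Log2(normalized count + 1) in each of the 8 libraries for genes among the 10 with the largest difference in each direction outside chromosome Z (10 towards cornea and 9 towards E8 retina are drawn), chosen among those with 10 CPM or more in the higher group whose groups did not overlap. The E8 points of the left panel lie at about 4 or below while the cornea points lie above 13, and in the right panel the late retina points lie near the E8 points for FGF19 and LHX4 but well below them for ATOH7 and FOXN4.

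The 10 genes with the largest difference towards cornea mixed epithelial, stromal and secreted products. LYPD2, a small anchored surface protein, had 52633 and 55619.6 in cornea and no read in E8 retina, at least 18409.7-fold higher. DPT, the dermatopontin that binds decorin and collagen fibrils, had 63659 and 82812 against no read, at least 24909-fold higher. APOD, a secreted lipid carrier, had 354012 and 336759 against 5.86 and 4.9 (log2 difference 15.73, SE 0.19, limma adjusted p = 6.0e-10). PSCA, a surface antigen of epithelia, had 92084 and 96521 in cornea and 0.586 and 2.94 in E8 retina, and its log2 difference of 15.20 ran from 14.55 (E8 replicate 1 left out) to 15.86 (E8 replicate 2 left out). E16 and E18 retina held 777 to 1442 normalized counts of PSCA, well above E8 retina. The calcium-binding protein S100A4 had 19674 and 32916 against a total of 3 reads in E8 retina, a ratio of 25110.2 (counting interval 8592 to 121767). Its fitted difference of 13.90 ran from 13.17 (E8 replicate 2 left out) to 14.64 (E8 replicate 1 left out). The row AKR had 107868 and 105984 against 5.86 and 7.84 (log2 difference 13.75, SE 0.40, limma adjusted p = 2.7e-08). The cytokine-like gene CYTL1 had 14639.6 and 17943 against 1 read in E8 retina, a ratio of 45332 (counting interval 8135 to 1790590.0).

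Cell junction genes followed the epithelium, but not all of them did. Of 17 tested, 15 were higher in cornea and 2 in E8 retina, with a median log2 difference of 3.24. Without chromosome Z, 16 were tested, of which 15 were higher in cornea and 1 in E8 retina, with a median of 3.75. DSP, the plaque protein desmoplakin of desmosomes, had 45026 and 55959.9 against 16.99 and 17.6 (log2 difference 11.42, SE 0.34, limma adjusted p = 2.9e-08). The plakophilin PKP3 had 3759.5 and 3567 against 5.27 and 4.9 (log2 difference 9.23, SE 0.33, limma adjusted p = 6.0e-08), and PKP1 had 13426 and 12017 in cornea and 1 read in the 2 E8 libraries, a ratio of 34308 (counting interval 6157 to 1355170.0). The tight junction gene CLDN1 had 19722 and 17479 against 4.69 and 1.96 (log2 difference 12.14, SE 0.56, limma adjusted p = 2.3e-07). The gap junction gene GJB6 had 4888 and 5923 against 0.586 and 2.94, and its log2 difference of 11.07 ran from 10.42 (E8 replicate 1 left out) to 11.73 (E8 replicate 2 left out). All of these desmosome, tight and gap junction genes were at 17.6 normalized counts or fewer in both E8 libraries. The scaffold gene TJP1, which serves tight and adherens junctions in many tissues, was among the exceptions. It had 4352 and 4119 against 5729 and 4908 (log2 difference -0.32, SE 0.12, limma adjusted p = 0.032), a call that was lost with edgeR, in a fit of the 4 libraries and when any of 6 libraries was left out. The connexin GJA1 was expressed in both, with 10679 and 7473 against 4149 and 2789 (log2 difference 1.39, SE 0.29, limma adjusted p = 0.0022), and at only 33.3 to 70.4 in E16 and E18 retina.

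Ion and water transport, by which the cornea keeps its stroma dehydrated, gave 7 of 8 genes higher in cornea, 3 of which were within 2-fold by their intervals. In a fit of the 4 libraries alone the count was 5. The water channels separated the tissues most. AQP1, of stromal cells and endothelium, had 29249.8 and 31777 against 151 and 138 (log2 difference 7.71, SE 0.22, limma adjusted p = 2.1e-08), and AQP3 of the epithelium, on chromosome Z, had 58819 and 78352 against 1.76 and 0.98 (log2 difference 14.83, SE 0.29, limma adjusted p = 4.6e-09). The endothelial transporter SLC4A11 had 1277 and 1022 against 109.6 and 67.6 (log2 difference 3.71, SE 0.28, limma adjusted p = 3.4e-06). The sodium pump beta subunit ATP1B1 had 2946 and 2862 against 648 and 545 (log2 difference 2.29, SE 0.12, limma adjusted p = 5.3e-07). Carbonic anhydrase CA2 went the other way, with 1598 and 1533 against 38049 and 37676 (log2 difference -4.60, SE 0.12, limma adjusted p = 1.5e-08), and reached 92251 to 105983 in E16 and E18 retina.

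Stromal genes were uniform in direction. All 9 stromal proteoglycan genes and all 19 collagen genes tested were higher in cornea, with median log2 differences of 9.48 and 7.70. KERA, the keratan sulfate proteoglycan keratocan, had 89802 and 89359 against 7.62 and 10.8 (log2 difference 13.12, SE 0.19, limma adjusted p = 1.2e-09). LUM, which spaces collagen fibrils, had 147625 and 189814 against 5.27 and 9.8 (log2 difference 14.31, SE 0.37, limma adjusted p = 1.5e-08). DCN, decorin, had 110367 and 104218 against 1.17 and 7.84, and its log2 difference of 14.58 (SE 1.12, limma adjusted p = 4.0e-06) ran from 13.57 (E8 replicate 1 left out) to 15.59 (E8 replicate 2 left out). The summed level of the list was 13819.6 to 13960.3 CPM in the cornea libraries and 14.98 to 15.15 CPM in the E8 libraries. PRELP had the smallest difference, with 3505 and 3841 against 243 and 239 (log2 difference 3.92, SE 0.17, limma adjusted p = 1.4e-07).

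Among the collagens, the fibril-forming COL1A2 had 575252 and 587560.2 against 94.3 and 105 (log2 difference 12.50, SE 0.15, limma adjusted p = 6.0e-10). COL5A2, which limits fibril diameter, had 132371 and 142988 against 445 and 977 (log2 difference 7.70, SE 0.29, limma adjusted p = 7.8e-08). The microfibrillar COL6A3 had 65037 and 56269 against 23.4 and 26.5 (log2 difference 11.19, SE 0.34, limma adjusted p = 2.9e-08). The hemidesmosome collagen COL17A1, an epithelial gene, had 36829.7 and 33704 against 79.1 and 21.6, and its log2 difference of 9.69 ran from 8.78 (E8 replicate 2 left out) to 10.61 (E8 replicate 1 left out). The E8 values were far from 0 in several other collagens. COL5A1 had 79119.7 and 80048 against 5581 and 5692 (log2 difference 3.82, SE 0.11, limma adjusted p = 2.7e-08), and COL11A1, another fibril gene, had 21271 and 16208 against 2232 and 2426 (log2 difference 3.00, SE 0.16, limma adjusted p = 4.1e-07). COL18A1, of basement membranes, had 6884 and 4965 against 3091 and 3529 (log2 difference 0.82, SE 0.16, limma adjusted p = 0.0014). The basement membrane gene COL4A5 had 6809 and 8778 against 2525 and 2233 (log2 difference 1.70, SE 0.17, limma adjusted p = 2.4e-05) and was lower in late retina, at 167 to 199.

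Genes that modify and cut matrix were not all on one side. Of 17 tested, 13 were higher in cornea, 2 in E8 retina and 1, CHST3, was at like level. The crosslinking enzyme LOX, on chromosome Z, had 40239 and 47949.6 against 16.99 and 16.7 (log2 difference 11.27, SE 0.17, limma adjusted p = 1.5e-09). The collagen chaperone SERPINH1 had 33052 and 35401 against 591 and 694 (log2 difference 5.74, SE 0.11, limma adjusted p = 4.6e-09), and the lysyl hydroxylase PLOD1 had 34939 and 33192 against 531 and 566 (log2 difference 5.95, SE 0.13, limma adjusted p = 7.0e-09). PLOD2, a second lysyl hydroxylase, was higher in E8 retina, with 2031 and 2172 against 5765 and 4774 (log2 difference -1.32, SE 0.16, limma adjusted p = 7.9e-05). So was the procollagen protease ADAMTS3, with 2051 and 1658 against 4102 and 2822 (log2 difference -0.88, SE 0.19, limma adjusted p = 0.0027). B3GNT7, which extends keratan sulfate chains, had 3112 and 3076 against 1.17 and 3.92, and its log2 difference of 9.89 ran from 9.30 (E8 replicate 1 left out) to 10.48 (E8 replicate 2 left out). The sulfotransferase CHST1, which also acts on keratan sulfate, had 2918 and 3002 against 159 and 530.2, and its difference of 3.35 ran from 2.48 (E8 replicate 1 left out) to 4.21 (E8 replicate 2 left out).

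Transcription factors of the periocular neural crest were higher in cornea in 12 of 15 cases. PRRX1, a homeobox factor of mesenchyme, had 1852 and 1862 and no read in E8 retina, at least 632-fold higher. TWIST2 (row CDERMO-1), a mesenchymal helix-loop-helix factor, had 5058 and 6467 and likewise no E8 read, at least 1960.1-fold higher. LMX1B, a factor of the anterior segment mesenchyme, had 1018 and 924 against 2 reads, a ratio of 1311 (counting interval 362 to 10838). SOX9 and EBF1 were higher in E8 retina. SOX9, which is also a factor of retinal progenitors and glia, had 498 and 618 against 5434 and 4221 (log2 difference -3.11, SE 0.17, limma adjusted p = 4.7e-07). EBF1, which also acts in young neurons, had 88.5 and 112 against 217 and 493, and its difference of -1.71 (limma adjusted p = 0.0021) ran from -2.30 (E8 replicate 1 left out) to -1.12 (E8 replicate 2 left out). EYA1, a cofactor of homeobox factors, had 159 and 172 against 146 and 248 and was at like level (95% interval -0.93 to 0.52). Actin and filament genes split, with 5 of 8 higher in cornea and 3 in E8 retina. The smooth muscle gene TAGLN had 1802 and 2026 against 11.7 and 6.86 (log2 difference 7.58, SE 0.69, limma adjusted p = 1.2e-05), while the intermediate filament NES of neural progenitors had 522 and 501 against 11681 and 11109.7 (log2 difference -4.47, SE 0.11, limma adjusted p = 1.1e-08). TMSB10, an actin monomer binder, had 16.6 and 65.1 against 3121 and 5362, and its difference of -6.91 ran from -7.86 (cornea replicate 2 left out) to -5.95 (cornea replicate 1 left out).

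On the retinal side, 13 of 14 eye field and progenitor transcription factors were higher in E8 retina and none in cornea. The median log2 difference was -7.72, or -6.76 with the 2 genes at 0 in cornea set to their bound. The row RX1, matched through a synonym to RAX, which starts eye formation, had 1.84 and 1.23 against 2496 and 1707, a ratio of 1492 (counting interval 413 to 12326). A separate row RAX1 is given with chromosome Z, and which of these rows is RAX was not tested. SIX6, which keeps progenitors dividing, had 5.53 and 8.6 against 10303 and 12143 (log2 difference -10.46, SE 0.20, limma adjusted p = 4.6e-09). The dorsal retina factor TBX5 had 768 and 801 in E8 retina and no cornea read, at least 142-fold higher. The gene left over was PAX6 (row PAX-6), which was at like level and is described with the shared genes.

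Several of these factors were also lower in E16 and E18 retina than in E8 retina. HES5, a target of Notch signalling in progenitors, had 7.38 and 6.14 against 11434 and 6877 in cornea and E8 retina (log2 difference -10.16, SE 0.27, limma adjusted p = 1.5e-08) and 398 to 1444 in E16 and E18 retina. FOXN4, which acts in progenitors of amacrine and horizontal cells, had 3.69 and 0 against 2829 and 2445 and only 8.33 to 16.3 in late retina. Its ratio was 1821 (counting interval 504 to 15040.0), and its fitted difference of -10.25 ran from -11.36 (cornea replicate 1 left out) to -9.13 (cornea replicate 2 left out). The progenitor factor SOX2 had 16.6 and 47.9 against 2071 and 2043 and 888 to 1017 in late retina, and its difference of -6.13 ran from -6.87 (cornea replicate 2 left out) to -5.39 (cornea replicate 1 left out). NR2E1, an orphan receptor that keeps progenitors in cycle, had 33.2 and 81.1 against 5037 and 3781 and 781 to 853 in late retina, and its difference of -6.36 ran from -7.00 (cornea replicate 2 left out) to -5.73 (cornea replicate 1 left out). LHX2, an early eye field factor, had 1.84 and 7.37 against 1489 and 1604 and 467 to 485 in late retina, and its difference of -8.31 ran from -9.09 (cornea replicate 2 left out) to -7.53 (cornea replicate 1 left out). In SOX2, NR2E1 and LHX2 cornea replicate 2 was above replicate 1, and both were far below E8 retina. MEIS1, which is not confined to the retina, showed a smaller difference, with 852 and 754 against 2459.6 and 3359 (log2 difference -1.84, SE 0.16, limma adjusted p = 9.3e-06).

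The Notch pathway, which holds back neuron formation, split by its ligands. Of 9 Notch and proneural genes tested, 7 were higher in E8 retina and 2 in cornea. The receptor NOTCH1 had 2655 and 2315 against 23583 and 28132 (log2 difference -3.38, SE 0.14, limma adjusted p = 1.2e-07). The ligand DLL1 had 137 and 127 against 5984 and 5519 (log2 difference -5.44, SE 0.18, limma adjusted p = 3.8e-08), and DLL4 had 133 and 97.04 against 2320.2 and 2621 (log2 difference -4.43, SE 0.22, limma adjusted p = 3.5e-07). The ligand JAG1 was higher in cornea, with 2426 and 2139.8 against 275 and 332 (log2 difference 2.91, SE 0.16, limma adjusted p = 6.5e-07), and so was JAG2, with 6014 and 6609 against 1679.8 and 1426 (log2 difference 2.03, SE 0.13, limma adjusted p = 1.3e-06). The Delta-type ligands tested were thus higher in E8 retina and the Jagged-type ligands in cornea. HES6, which promotes neuron formation, had 11.1 and 8.6 against 5232 and 3019 (log2 difference -8.53, SE 0.40, limma adjusted p = 2.4e-07). ATOH7, which starts ganglion cell fate, had 1.84 and 1.23 against 10559.8 and 2483, a ratio of 5111 (counting interval 1415 to 42209), and since the E8 libraries differed, its fitted difference of -10.99 ran from -12.03 (E8 replicate 2 left out) to -9.95 (E8 replicate 1 left out).

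Genes of young neurons were higher in E8 retina in 12 of 13 cases, with a median log2 difference of -4.56. The microtubule regulator STMN2 had 129 and 466 against 11511 and 13644 (log2 difference -5.67, SE 0.46, limma adjusted p = 5.8e-06), and its difference ran from -6.59 (cornea replicate 2 left out) to -4.75 (cornea replicate 1 left out). The neuronal RNA-binding gene ELAVL4 had 133 and 354 against 9318 and 10712 (log2 difference -5.52, SE 0.36, limma adjusted p = 1.6e-06), and its difference ran from -6.22 (cornea replicate 2 left out) to -4.82 (cornea replicate 1 left out). The neuronal tubulin TUBB3 had 640.1 and 1508 against 30425 and 33167 (log2 difference -5.01, SE 0.33, limma adjusted p = 1.5e-06), and its difference ran from -5.63 (cornea replicate 2 left out) to -4.39 (cornea replicate 1 left out). In each of them cornea replicate 2 was more than 2-fold above replicate 1, and both were far below E8 retina. The median of the list was -5.26 with cornea replicate 2 left out and -4.21 with replicate 1 left out. ISL1, a transcription factor of ganglion cells that lies on chromosome Z, had 14.8 and 9.83 against 4006 and 4046 (log2 difference -8.27, SE 0.18, limma adjusted p = 7.0e-09) with no such gap. DPYSL3, a collapsin response mediator, was at like level, with 8427 and 8873 against 6775 and 10394 (95% interval -0.37 to 0.45).

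Photoreceptor genes, most of which the retina turns on at later stages, were low in cornea, and in E8 retina RBP3 and RXRG made up most of their summed level. Of 9 tested, 5 were higher in E8 retina and 2 in cornea, and the summed level was 12.01 to 14.5 CPM in cornea, 379 to 420 CPM in E8 retina and 2387 to 3800 CPM in E16 and E18 retina. RBP3, the retinoid-binding protein of the interphotoreceptor matrix, had 0 and 3.69 against 2423 and 3592, a ratio of 1293 (counting interval 442 to 6271), and its fitted difference of -10.41 ran from -11.53 (cornea replicate 2 left out) to -9.30 (cornea replicate 1 left out). The nuclear receptor RXRG had 304 and 235 against 8687 and 6361 (log2 difference -4.79, SE 0.19, limma adjusted p = 1.1e-07). The cone arrestin ARR3 was higher in cornea at low values, with 47.96 and 28.3 against 3.52 and 12.7, while late retina had 11971 to 22954. Its difference of 2.26 ran from 1.46 (E8 replicate 1 left out) to 3.07 (E8 replicate 2 left out).

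Cell division separated the tissues by level, not by presence. Of 18 DNA replication genes tested, 17 were higher in E8 retina, with a median log2 difference of -2.23, and all 20 mitosis genes were, with a median of -3.26. The helicase subunit MCM2 had 1913 and 2083 against 12333 and 13728 (log2 difference -2.70, SE 0.13, limma adjusted p = 2.5e-07). The sliding clamp PCNA had 4007 and 3658 against 17673 and 12216 (log2 difference -1.94, SE 0.17, limma adjusted p = 8.0e-06), and the ribonucleotide reductase subunit RRM2 had 2059 and 2306 against 15683 and 11492 (log2 difference -2.62, SE 0.18, limma adjusted p = 2.3e-06). The replication licensing gene CDC6 had 60.9 and 63.9 against 148 and 68.6 and was not called (95% interval -1.70 to 0.33). In CDC6 the second E8 library was close to the cornea libraries. The proliferation marker MKI67 had 1725 and 1804 against 22445 and 16435 (log2 difference -3.44, SE 0.18, limma adjusted p = 4.3e-07). TOP2A, which untangles chromosomes, had 1747 and 1242 against 33416 and 28737 (log2 difference -4.39, SE 0.19, limma adjusted p = 1.5e-07), and the mitotic kinase CDK1 had 1267 and 1335 against 14818 and 13118 (log2 difference -3.42, SE 0.14, limma adjusted p = 1.3e-07).

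In most of these genes cornea lay between E8 retina and late retina. In all 20 mitosis genes both cornea libraries were above all 4 libraries of E16 and E18 retina, and in 14 of 18 DNA replication genes as well. Over all genes tested, this order was found in 39.1%. MKI67 was at 214 to 295 in late retina and RRM2 at 39.4 to 81.99. SMC2, a condensin subunit on chromosome Z, had 1762 and 1495 against 27791 and 21311 in cornea and E8 retina and 21.96 to 56.8 in late retina. The summed mitosis genes came to 604 to 678 CPM in cornea, 6910.3 to 8770.4 CPM in E8 retina and 88.5 to 136 CPM in late retina. For DNA replication the sums were 711 to 749, 3658 to 4593 and 408 to 553 CPM. In GINS2 and TYMS, which serve the replicative helicase and nucleotide supply, the cornea libraries were below all late retina libraries.

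**Figure D3:**
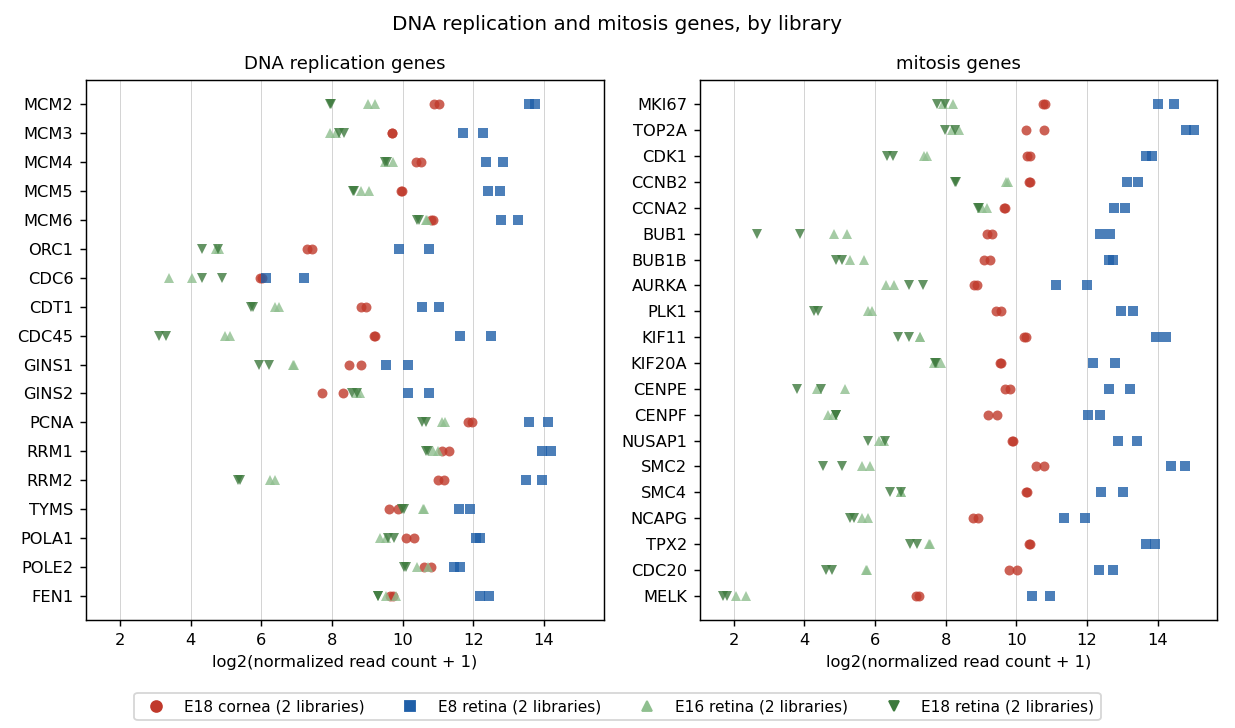
Log2(normalized count + 1) in each of the 8 libraries for the 18 DNA replication genes and the 20 mitosis genes tested. In every mitosis gene the E8 points are the highest, the cornea points come next and the late retina points are the lowest. In 4 DNA replication genes cornea does not stand above all late retina points.

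The regulators that govern entry into the cycle were mixed, with 6 of 13 higher in E8 retina, 4 higher in cornea and 2 at like level. All genes tested were divided too, with 37% higher in E8 retina and 37.4% in cornea, so a split is not particular to this list. E2F1, which drives replication genes, had 806 and 760.4 against 14447 and 17449.5 (log2 difference -4.34, SE 0.28, limma adjusted p = 1.5e-06). The cyclin CCND1 had 548 and 845 against 4220.3 and 3666 (log2 difference -2.53, SE 0.21, limma adjusted p = 6.5e-06), and CCNE2, a cyclin of S phase entry, had 135 and 129 against 2263 and 1356 (log2 difference -3.72, SE 0.25, limma adjusted p = 2.0e-06). The sister cyclins of CCND1 went the other way. CCND2 had 594 and 663 against 427 and 307 (log2 difference 0.79, SE 0.20, limma adjusted p = 0.0066), and CCND3 had 745 and 569 against 277 and 140.1 (log2 difference 1.72, SE 0.31, limma adjusted p = 9.0e-04). The MYC family split likewise. MYC was higher in cornea, with 965 and 994 against 324 and 553 (log2 difference 1.21, SE 0.26, limma adjusted p = 0.0024), and MYCN was higher in E8 retina, with 223 and 227 against 1340.0 and 1126 (log2 difference -2.44, SE 0.18, limma adjusted p = 2.9e-06). The inhibitor CDKN1A (row CIP1) had 517 and 539 against 82.03 and 84.3 (log2 difference 2.65, SE 0.13, limma adjusted p = 2.6e-07) and 6994 to 10946 in late retina. The inhibitor CDKN1B had 5010.2 and 4598 against 4189.8 and 4229 and was at like level (95% interval -0.05 to 0.43).

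Chromatin regulators and RNA-binding proteins were on the side of E8 retina, with 12 of 19 and 12 of 18 genes higher there and 3 higher in cornea in each list. For the RNA-binding proteins, the count higher in cornea was 6 with TMM factors and 5 with edgeR. HMGB2, a chromatin protein of dividing cells, had 1727 and 1845 against 40377 and 32344 (log2 difference -4.34, SE 0.14, limma adjusted p = 3.4e-08). The DNA methyltransferase DNMT3B had 330.2 and 242 against 3043 and 2812 (log2 difference -3.37, SE 0.20, limma adjusted p = 9.9e-07), and the Polycomb methyltransferase EZH2 had 1325 and 1384 against 5239 and 5333 (log2 difference -1.96, SE 0.11, limma adjusted p = 7.5e-07). The related DNMT3A was at like level, with 2977 and 4566 against 3092 and 2792 (95% interval -0.10 to 0.75). TET2, an enzyme that oxidizes methylcytosine, was higher in cornea, with 4387 and 2967 against 1358 and 1386 (log2 difference 1.39, SE 0.19, limma adjusted p = 1.4e-04). The remodeller subunit SMARCA2, on chromosome Z, was also higher in cornea, with 6720.3 and 7310.1 against 1565 and 1926 (log2 difference 2.01, SE 0.14, limma adjusted p = 1.8e-06). LIN28B, which blocks let-7 processing, had 5.53 and 11.1 against 646 and 732 (log2 difference -6.28, SE 0.31, limma adjusted p = 2.9e-07). PTBP1, the general splicing repressor, was at like level in cornea and E8 retina, with 11553 and 12014 against 10918 and 8601 (95% interval -0.01 to 0.57), and at 2305 to 2644 in late retina. Its neural relative PTBP2 had 1457 and 1475 against 6930.1 and 6672 (log2 difference -2.21, SE 0.10, limma adjusted p = 2.4e-07).

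Signalling genes were divided within each pathway, as were all genes tested, of which 37.4% were higher in cornea and 37% in E8 retina. Of 14 FGF pathway genes tested, 8 were higher in cornea and 4 in E8 retina. The ligand FGF19, made in the neural retina, had 2739.7 and 1944 in E8 retina and no read in cornea, at least 423-fold higher there. FGF8, a ligand of the central eye field, had 256 and 175 and no cornea read, at least 38.98-fold higher. FGF10, a mesenchymal ligand on chromosome Z, had 559 and 456 against 13.5 and 13.7 (log2 difference 5.11, SE 0.28, limma adjusted p = 6.1e-07). The receptors were higher in cornea. FGFR2, the receptor for FGF10, had 11493 and 12918 against 274 and 223 (log2 difference 5.62, SE 0.19, limma adjusted p = 5.4e-08), and FGFR3 had 11325 and 12217 against 127 and 151 (log2 difference 6.40, SE 0.16, limma adjusted p = 1.1e-08). FGFR1 differed less, with 5250.1 and 4476 against 1556 and 1400.5 (log2 difference 1.71, SE 0.14, limma adjusted p = 6.2e-06). The target ETV5 was at like level, with 1321 and 1362 against 2013 and 1400.5 (95% interval -0.73 to 0.09).

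Wnt pathway genes were higher in cornea in 11 of 18 cases, lower in 3 and at like level in 5, 1 of which was among the 3. The ligand WNT6 had 5693 and 5829.9 in cornea and no E8 read, at least 1959.6-fold higher. WNT5A, a ligand of the noncanonical branch, had 1265 and 1742 against 46.3 and 54.9 (log2 difference 4.85, SE 0.22, limma adjusted p = 2.2e-07). The extracellular inhibitor DKK2, which protects corneal fate in mice, had 15883 and 17684 against 11.7 and 41.2, and its log2 difference of 9.499 ran from 8.63 (E8 replicate 1 left out) to 10.36 (E8 replicate 2 left out). The target gene AXIN2 had 4632 and 4323 against 496 and 322 (log2 difference 3.48, SE 0.20, limma adjusted p = 6.6e-07). SFRP1, another extracellular inhibitor, was higher in E8 retina, with 3474 and 3460.3 against 9803 and 9621 (log2 difference -1.49, SE 0.11, limma adjusted p = 2.6e-06). Among the genes at like level were the transducer CTNNB1, with 25592 and 29336 against 23188 and 21496 (95% interval 0.02 to 0.57, called higher in cornea with edgeR and DESeq2), and the receptor FZD7, with 1033 and 1117 against 792 and 913 (95% interval -0.08 to 0.75).

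The BMP and TGF-beta list was divided, as were all genes tested, with 10 of 21 genes higher in cornea, 8 in E8 retina and 3 at like level. Its median log2 difference of 0.57 became -0.10 with cornea replicate 2 left out and -0.01 with E8 replicate 1 left out, so that the list had no stable direction. The ligand TGFB3 was higher in cornea, with 9336 and 9596 against 885 and 820.3 (log2 difference 3.47, SE 0.12, limma adjusted p = 5.0e-08), and so was BMP4, with 821 and 726 against 14.1 and 5.88 (log2 difference 6.25, SE 0.40, limma adjusted p = 1.3e-06). The matrix gene TGFBI, a corneal adhesion protein, had 6333 and 7276 against 1134 and 1107 (log2 difference 2.60, SE 0.11, limma adjusted p = 1.7e-07). The receptors tested parted by family, with TGFBR2 and TGFBR3 higher in cornea and BMPR1A, BMPR1B and BMPR2 (row BMPR-II) higher in E8 retina. TGFBR2 had 819 and 958 against 18.7 and 25.5 (log2 difference 5.28, SE 0.31, limma adjusted p = 8.2e-07). BMPR1B had 47.96 and 42.99 against 423 and 368 (log2 difference -3.09, SE 0.24, limma adjusted p = 4.2e-06). The signal transducers were higher in E8 retina, SMAD1 of the BMP branch with 1433 and 1626 against 3822 and 4935 (log2 difference -1.51, SE 0.16, limma adjusted p = 3.3e-05) and SMAD3 of the TGF-beta branch with 2629 and 2303 against 4983 and 4391 (log2 difference -0.93, SE 0.13, limma adjusted p = 1.7e-04).

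Hedgehog genes were higher in E8 retina in 7 of 10 cases, a count that was 4 in a fit of the 4 libraries alone and 5 or 6 when either cornea, either E8 or either E18 retina library was left out. SHH, made by ganglion cells in the retina, had 1.84 and 3.69 against 337 and 276 (log2 difference -6.39, SE 0.32, limma adjusted p = 3.5e-07). The receptor PTCH1, on chromosome Z, is also a target of the pathway and had 454 and 445 against 4286 and 4623 (log2 difference -3.31, SE 0.13, limma adjusted p = 8.0e-08). The coreceptor BOC was higher in cornea, with 3189.5 and 2529 against 468 and 416 (log2 difference 2.69, SE 0.16, limma adjusted p = 9.0e-07). SMO, SUFU and GLI3 were at like level, and the calls of SMO and SUFU towards E8 retina were among those lost in the fit of the 4 libraries. The number of Hedgehog genes higher in E8 retina was also 5 with TMM factors and 6 with edgeR. The transcription factor GLI3, with 919 and 1345 against 809.7 and 922 (95% interval -0.13 to 0.85), stood far above late retina at 106 to 128.

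Both tissues expressed enzymes that make and break down retinoic acid, at different levels. ALDH1A1, the dorsal retina enzyme on chromosome Z, had 42.4 and 46.7 against 10028 and 6236 (log2 difference -7.44, SE 0.23, limma adjusted p = 3.2e-08). ALDH1A2, the enzyme of many mesenchymes, had 6418 and 6703 against 36.9 and 22.5 (log2 difference 7.78, SE 0.26, limma adjusted p = 4.2e-08). ALDH1A3 (row ALDH6), of the ventral retina, was at like level, with 1586 and 1709.9 against 2147 and 1191 (95% interval -0.52 to 0.61), while late retina had 215 to 267. The degrading enzyme CYP26A1 had 3639.6 and 2776 against 1065 and 996 (log2 difference 1.63, SE 0.20, limma adjusted p = 7.3e-05) and was at 67.7 to 208 in late retina. The binding protein CRABP1 (row CRABP-I) was higher in cornea, with 18189 and 25200.1 against 4193 and 5051 (log2 difference 2.22, SE 0.18, limma adjusted p = 6.6e-06), and so was CRABP2, with 2099 and 3034 against 156 and 95.1 (log2 difference 4.36, SE 0.43, limma adjusted p = 2.0e-05). Of the 13 genes tested, 8 were higher in cornea, 3 in E8 retina and 3 at like level. With cornea replicate 2 left out, 7 were higher in cornea and 1 in E8 retina.

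Genes were taken to be at like level when the 95% interval of the log2 difference lay inside -1 to 1, that is within 2-fold. This held for 3679 genes, 27.9% of those tested, of which 1307 also passed the test for a difference, so that the 2 classes overlap. A further 1010 genes were neither called nor at like level. Outside chromosome Z and the 16 rows before it, 3530 genes were at like level, 98.9% of them at 1 CPM or more in all 4 libraries, and 746 had an interval inside -0.5 to 0.5. With 2 libraries in a group such intervals are wide. They also rest on a spread pooled with late retina, whose replicates lay closer together than those of cornea or E8 retina. A fit of the 4 libraries alone found 2960 genes at like level.

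PAX6, the regulator shared by retina and surface ectoderm, had 26250.3 and 23620.4 normalized counts in the cornea libraries and 25251 and 30279 in the E8 libraries. Its log2 difference was -0.15 (SE 0.13, 95% interval -0.45 to 0.15, limma adjusted p = 0.33), the 2 groups overlapped, and late retina had 18728 to 21255. The other 9 genes with the highest mean among those with an interval inside -0.5 to 0.5 serve general functions. They were the glycolytic genes ENO1, PGK1 and TPI1, the histone row H3-IX, the stress factor ATF4, the RNA-binding genes HDLBP and CNBP, the chaperone HSP90B1 and TCF12, a partner of proneural factors. TCF12 had 20000.4 and 21632 against 18436 and 17883 in cornea and E8 retina (95% interval -0.07 to 0.46) and 5771 to 7542 in late retina.

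Glycolysis genes were at like level at many steps of the pathway. Of 19 genes tested, 9 were at like level, 4 were higher in cornea and 7 in E8 retina, HK1 being both called and at like level. The median log2 difference was -0.09, and the summed level was 20224 to 20474 CPM in cornea, 19692 to 21654.5 CPM in E8 retina and 42382 to 48793 CPM in late retina. LDHA, which makes lactate, had 64375 and 63412 against 70085 and 78159 (95% interval -0.55 to 0.13). PGK1, of the first step that yields ATP, had 15931 and 18193 against 14346 and 15279.7 (95% interval -0.08 to 0.48), and GAPDH had 118648 and 146376 against 159641 and 188559 (95% interval -0.89 to 0.09, called lower in cornea with DESeq2). Other genes of the list differed more, with log2 differences from -4.32 to 14.35 over the list and 1.64 for the enzyme gene GPI. The glucose transporter SLC2A1 was higher in E8 retina, with 2348 and 2096 against 15471 and 14279 (log2 difference -2.74, SE 0.11, limma adjusted p = 9.7e-08), and so was the lactate transporter SLC16A3, with 454 and 468 against 8352 and 10214 (log2 difference -4.32, SE 0.12, limma adjusted p = 2.3e-08).

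Some like-level genes set cornea and E8 retina together against late retina. In 61 genes all 4 libraries of cornea and E8 retina were more than 2-fold above all 4 libraries of E16 and E18 retina, 12 of them more than 4-fold, and in 195 genes they were more than 2-fold below, 68 of them more than 4-fold. These were 1.73% and 5.52% of the like-level genes outside chromosome Z, against 2.97% and 8.43% of all genes tested there, so that neither pattern was more frequent among like-level genes. These are counts of non-overlap with libraries outside the comparison and carry no test. On the high side stood FANCE, of the Fanconi repair complex, with 397 and 283 against 329 and 321 and 5.01 to 25.3 in late retina. NFKB1, a subunit of NF-kappaB, had 2014 and 1893 against 1622 and 1523 and 189 to 196 in late retina. HYAL2, a hyaluronidase, had 1817 and 1628 against 1717 and 2094 and 149 to 368 in late retina. PHLDB2, which anchors microtubules at the basal cell cortex, had 3407 and 4332 against 3413 and 3167 and 414 to 761 in late retina. On the low side were genes of mature neurons and photoreceptors that were low in cornea and E8 retina alike. The arrestin SAG had 46.1 and 29.5 against 40.4 and 39.2 and 2686 to 5804 in late retina. The melanopsin row OPN4-2 had 7.38 and 4.91 against 4.69 and 7.84 and 1262 to 1932 in late retina. ASMT, the last enzyme of melatonin synthesis, had 7.38 and 3.69 against 5.27 and 3.92 and 1186 to 1629 in late retina. The row CRDS2 was on this side too with 18.4 and 38.1 against 25.2 and 28.4, and its difference of -0.01, which ran from -0.51 (cornea replicate 2 left out) to 0.49 (cornea replicate 1 left out), was called in opposite directions when either cornea library was left out.

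**Figure D4:**
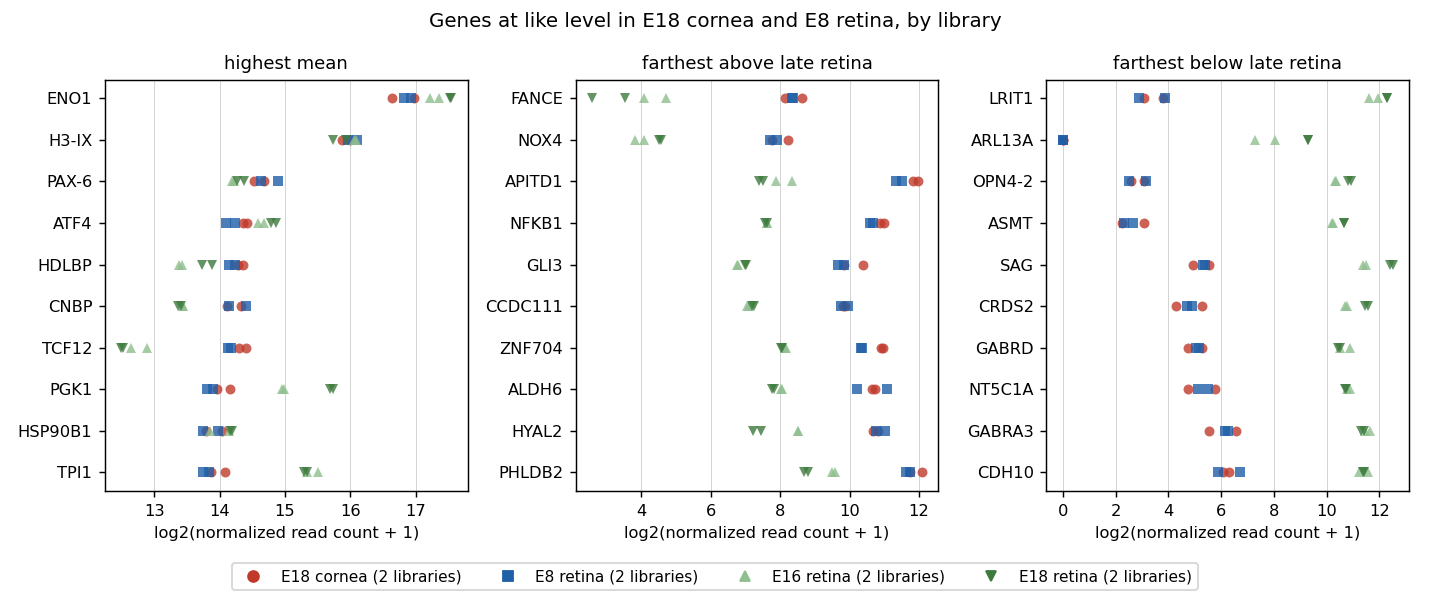
Log2(normalized count + 1) in each of the 8 libraries for genes at like level in E18 cornea and E8 retina, in 3 panels with their own x axes, for the 10 of highest mean, the 10 farthest above late retina and the 10 farthest below. Circles of cornea and squares of E8 retina lie together in each row, while the triangles of late retina lie apart in the second and the third panel.

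Late retina stood on both sides of the large differences. Of 1228 genes outside chromosome Z at least 4-fold higher in E8 retina than in cornea, all 4 late retina libraries lay nearer to E8 retina in 795, nearer to cornea in 302 and on both sides in 131. Of 2499 genes at least 4-fold higher in cornea, they lay nearer to E8 retina in 1392, nearer to cornea in 643 and on both sides in 464. Nearness was read from the midpoint of the group means on the log2 scale and is a description.

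Most ribosomal protein and mitochondrial genome genes were higher in cornea. Of 65 ribosomal protein genes, 59 were higher in cornea and 2 in E8 retina (none in a fit of the 4 libraries), with a median log2 difference of 1.13, and their sum took 94963 to 126737 CPM in cornea against 54546 to 59614 CPM in E8 retina. RPL35 had 35882 and 49101 against 10720.3 and 11991 (log2 difference 1.89, SE 0.17, limma adjusted p = 9.5e-06), and RPL3 had 67463 and 89325 against 42544 and 45555 (log2 difference 0.82, SE 0.16, limma adjusted p = 0.0013). Of 12 mitochondrial genome genes, which encode respiratory chain subunits, 11 were higher in cornea, with a median of 1.98. MT-CO1 had 551929 and 441783 against 130206 and 128034 (log2 difference 1.94, SE 0.19, limma adjusted p = 1.8e-05). MT-ATP8 had 7834 and 6094 against 6611 and 7839 and was at like level (95% interval -0.40 to 0.29).

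The nuclear genes for subunits of the same complexes showed another pattern. Of 50 nuclear oxidative phosphorylation subunits, 38 were at like level, 13 were higher in cornea and 11 in E8 retina, with a median of 0.04. With cornea replicate 1 left out, 23 were higher in cornea and 10 in E8 retina, and with cornea replicate 2 left out 9 and 16, so that the balance turned on the cornea library. NDUFA12, of complex I, had 1987 and 1883 against 1730.2 and 2048 (95% interval -0.26 to 0.34). Proteasome and spliceosome genes were higher in E8 retina by small amounts. These were 25 of 35 proteasome genes with a median of -0.56, with 21 of the 35 at like level, and 22 of 24 spliceosome genes with a median of -0.94. PSMA4 had 3639.6 and 3595 against 7065 and 6071 (log2 difference -0.86, SE 0.11, limma adjusted p = 1.2e-04), and the splicing factor SF3B3 had 4510.3 and 4816 against 12395 and 10644 (log2 difference -1.30, SE 0.11, limma adjusted p = 8.7e-06). Rows named for microRNAs count reads of longer polyadenylated transcripts over them and not mature microRNAs. Of 95 such rows tested out of 642, 36 were higher in cornea and 22 in E8 retina. The shares of all genes that passed the same filter were 37.4% higher in cornea and 37% in E8 retina. With no filter on low values, 429 of these rows were tested, 72 of them higher in cornea and 45 in E8 retina.

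Marker genes of other cell types also moved with cornea, and their part in the differences was not tested. All 9 skeletal muscle genes tested were higher in cornea, with a sum of 239 to 303 CPM against 2.63 to 2.95 CPM in E8 retina. The muscle actin ACTA1 had 4366 and 3382 against 16.99 and 25.5 (log2 difference 7.46, SE 0.26, limma adjusted p = 5.3e-08). The troponin TNNT3 had 716 and 517 against 23.4 and 0.98, and its difference of 6.45 ran from 4.64 (E8 replicate 2 left out) to 8.27 (E8 replicate 1 left out). All 8 leukocyte genes tested were higher, with sums of 137 to 144 against 6.16 to 8.32 CPM, as for the invariant chain CD74 (row II) with 1642 and 1734 against 42.2 and 38.2 (log2 difference 5.36, SE 0.16, limma adjusted p = 2.9e-08). The call of PTPRC, the common leukocyte antigen, at 183 and 225 against 122 and 62.7, was lost when cornea replicate 2 or E8 replicate 2 was left out. Of 9 scleral cartilage genes, 8 were higher in cornea, with sums of 128 to 135 against 43.5 to 50.3 CPM. Of these, MATN1, a defining marker, had only 5.53 and 2.46 in cornea and no read in E8 retina.

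Vessel genes were higher in cornea in 8 of 9 cases, with sums of 154 to 182 CPM against 93.3 to 116 CPM. Most of the E8 sum came from KDR alone. The endothelial cadherin CDH5 had 1759.9 and 1610.4 against 20.5 and 30.4 (log2 difference 6.02, SE 0.77, limma adjusted p = 1.1e-04), while the VEGF receptor KDR, which is also expressed by retinal progenitors, had 448 and 367 against 2712 and 2047 (log2 difference -2.53, SE 0.17, limma adjusted p = 1.8e-06). Of 6 Schwann and oligodendrocyte genes, 4 were higher in cornea and 1 in E8 retina, with sums of 280 to 544 against 4834 to 5257 CPM. That 1 gene, FABP7, made up nearly all of the E8 sum, so the sums do not give the direction of the other genes. Of 6 Müller glia genes, 2 were higher in cornea and 3 in E8 retina, with sums of 67.2 to 133 against 447 to 521 CPM. SOX10, a crest and Schwann cell factor, had 542 and 427 against 4.1 and 3.92 (log2 difference 6.59, SE 0.23, limma adjusted p = 5.7e-08). MBP had 1468 and 6239 against 219 and 218, and its difference of 3.79 ran from 2.74 (cornea replicate 2 left out) to 4.83 (cornea replicate 1 left out). FABP7, of radial glia and progenitors, had 657 and 2023 against 138655 and 126172, and its difference of -6.84 ran from -7.65 (cornea replicate 2 left out) to -6.03 (cornea replicate 1 left out). Of 9 lens genes 5 were higher in cornea and 1 in E8 retina, with sums of 24.8 to 37.8 against 6.72 to 7.45 CPM. The lens crystallin CRYAA had 157 and 356 in cornea and a total of 3 reads in E8 retina, a ratio of 251 (counting interval 85.4 to 1224), and its fitted difference of 6.84 ran from 6.25 (cornea replicate 2 left out) to 7.43 (cornea replicate 1 left out). Of 8 pigment epithelium genes 3 were higher in cornea, with sums of 71.1 to 74.7 against 16.9 to 18.4 CPM, and of 3 blood genes 2 were (1 with cornea replicate 1 left out), with sums of 3.53 to 3.70 against 1.29 to 1.96 CPM.

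Chromosome Z is also described apart, because birds carry 2 Z chromosomes in males and 1 Z and 1 W in females, and the labels do not give the sex of the embryos. The list counts and medians above include its genes unless stated. Without chromosome Z, the median of the ion and water transport list was 0.46 instead of 1.37, and that of the Müller glia list 0.52 instead of -1.22. Of 644 Z genes tested, 500 were called, 193 higher in cornea and 307 in E8 retina. Their median log2 difference was -0.37, against 0.00 for the 12543 genes outside Z and the rows before it. In each library, the median level of Z genes less that of other genes on the log2 scale was -0.29 and -0.22 in cornea, 0.23 and 0.21 in E8 retina, -0.63 and -0.60 in E16 retina and -0.44 and -0.43 in E18 retina. The gap between cornea and E8 retina was larger than the spread between replicates, whose SD for this difference was 0.05. Late retina also lay below E8 retina in this measure. Sex, tissue and age cannot be told apart in the gap between cornea and E8 retina.

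Single genes of chromosome Z differed far more than this shift. The progenitor factor row RAX1 had 0 and 2.46 against 1928 and 1737, a ratio of 1259 (counting interval 348 to 10396), and its fitted difference of -9.94 ran from -10.84 (cornea replicate 2 left out) to -9.05 (cornea replicate 1 left out). RORB, a nuclear receptor of retinal cells, had 9.22 and 15.97 against 11085 and 8793 (log2 difference -9.55, SE 0.24, limma adjusted p = 1.3e-08). CHRNB3, an acetylcholine receptor subunit, had 0 and 3.69 against 2988 and 3743, a ratio of 1478 (counting interval 506 to 7170.4), and its fitted difference of -10.59 ran from -11.71 (cornea replicate 2 left out) to -9.48 (cornea replicate 1 left out). In the direction of cornea, AQP3 and LOX were among the 3 largest differences and are given with their pathways.

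Of the 16 rows before chromosome Z, 7 were tested, and all 7 were higher in cornea. Their E8 values ran from 0 to 7.84 normalized counts and their cornea values from 18.4 to 1117. ENSGALG00000005785 had 906 and 835 in cornea against 1 read in E8 retina, and ENSGALG00000014441 had 572 and 711 against none, at least 218-fold higher. ENSGALG00000026991 differed from the others in that cornea held 25.8 and 52.8 but late retina 2311 to 3210.0. In the other 6 rows late retina was at or above the level of cornea, and E8 retina stood apart from both. The sources used here and the reference names do not annotate these rows, so that neither their gene names nor their chromosome are given here. The E8 libraries are the only ones of that age. A difference of embryo sex between them and the rest therefore cannot be told apart from a difference of age.

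**Figure D5:**
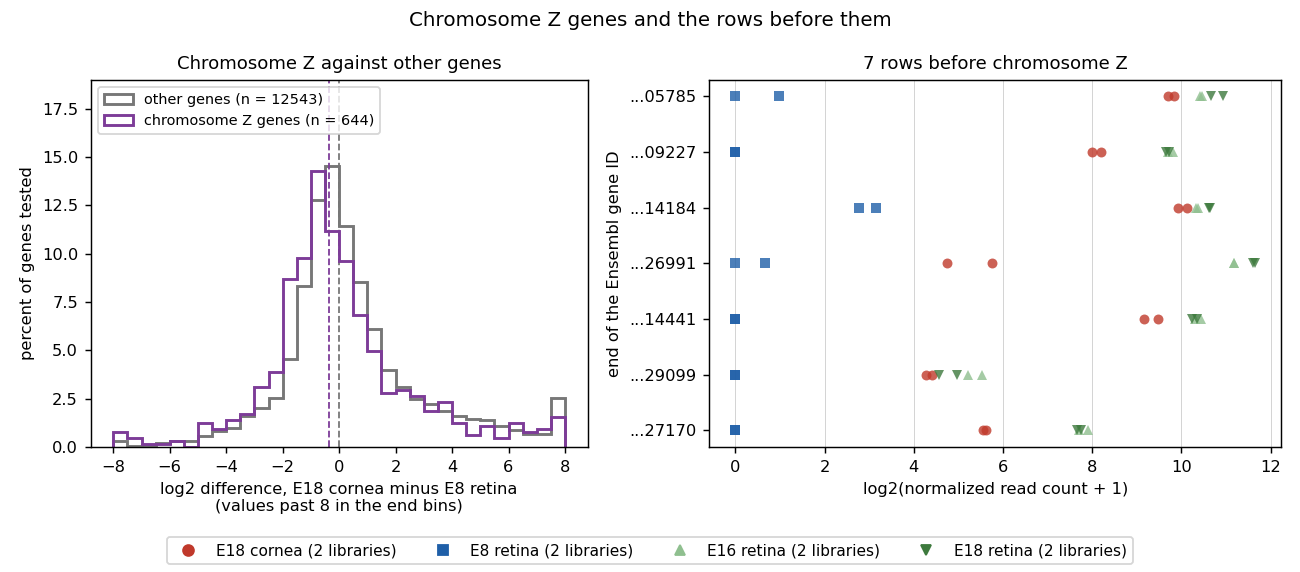
Left, percent of tested genes (y axis) by log2 difference between E18 cornea and E8 retina (x axis, bins of 0.5, dashed lines at the medians) for 644 chromosome Z genes and 12543 other genes. Right, log2(normalized count + 1) in each of the 8 libraries for the 7 tested rows before chromosome Z, where the E8 squares lie below 4 and all other points lie above 4.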

How the data were processed

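Poly(A) RNA of the 8 libraries was made into stranded TruSeq libraries and sequenced as paired ends. Per the labels and the study's methods, the authors aligned reads to galGal4 with STAR, counted them on genes with featureCounts and normalized with DESeq2. The annotation release, the strand setting and the handling of reads shared by genes are not given in the sources used here, so genes that overlap or share sequence are uncertain. In the deposited table each value is a signal, namely reads on a gene divided by the size factor that the authors computed for the library. Whole reads were recovered from the steps of each column for 100% of the values (within 0.01 reads). Depth on genes was 15662779 to 45670254 reads per library; floors and ratios cover counting error only, since reads carry no molecular identifiers.

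Genes that passed filterByExpr of edgeR (minimum count 10) were tested with limma on log2(value + 1), 1 term per group over all 8 libraries, with a mean-variance trend and Benjamini-Hochberg adjustment at 0.05. Fold changes on this scale understate the change of low genes. All tests are two-sided. Against a group with no read, a fold is a lower bound set by 3 reads in its shallower library, and against 1 to 3 reads it is a ratio of depth-scaled reads with an exact binomial 95% interval. P-values rest on the spread within 4 groups of 2 libraries, and the groups were not equally spread. Outside chromosome Z, the median absolute log2 difference between replicates was 0.250 in cornea and 0.254 in E8 retina. It was 0.135 in E16 retina and 0.122 in E18 retina. The pooled spread may therefore be too small for cornea and E8 retina, and their p-values and intervals too narrow. Lists (32 written by hand with 494 genes, and 6 by name pattern) and members were chosen with earlier results of these data known. Named genes were the 10 largest differences in each direction outside chromosome Z and 3 on it, with 10 CPM or more in the higher group and groups that did not overlap, the tested rows before Z, the first 3 tested and the extreme genes of each list, and the like-level genes of highest mean and farthest from late retina, 10 each; the other 72 named genes were added for their role, with their values seen. Row names were matched to symbols through RefSeq synonyms. Promoter sequences were not analysed here, and some genes chosen by the rule are not reported here. On simulated counts (13002 genes), 164 of 200 changed genes were recovered, 20 of 50 at 1.5-fold, 44 of 50 at 2-fold and 100% at 4-fold and 8-fold, and 12 unchanged genes were called. The simulation changed only these 200 genes, none with a low mean count, and used 1 common spread for all genes. In the data 74.4% of genes were called, so these rates do not carry over to this comparison or to low genes. Alternatives changed normalization, pseudocount, filter, tool, libraries, block and genes adjusted over. Software was R 4.3.3, limma 3.58.1, edgeR 4.0.16, DESeq2 1.42.0, Python 3.11.15, NumPy 2.4.6, pandas 2.3.3 and matplotlib 3.10.9.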

Additional observations from a re-analysis of the deposited data

How the results depend on the processing

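The counts of genes called, called in each direction, called with at least 2-fold difference and at like level stayed within 1.5 times their value under every alternative run. Genes called came to 9787 with TMM factors, 9843 with a pseudocount of 10, 10160 with no filter on low values, 9235 with at least 1 CPM in both libraries of a group, 9766 with edgeR, 9584 with DESeq2, 8796 in a fit of the 4 libraries, 8692 among genes with a symbol alone and 9303 without chromosome Z and the rows before it. Leaving out 1 library gave 9404 to 9615. Libraries with the same number did not deviate together over all genes tested (correlations of -0.05 to 0.05). The study numbers the chickens 1 and 2 in every group. Whether E18 cornea and E18 retina of the same number shared an embryo is not stated. With 1 replicate difference per group, these correlations cannot settle it. With the replicate block 9740 genes were called. The shift of chromosome Z was -0.22 with no filter, against -0.37. edgeR gives no intervals, so its like-level count was not run. Over 279 named genes and all alternatives, 4877 values kept their side of the threshold, 33 gained a call, 53 lost one and 1 reversed. The 1 reversed was CRDS2, at 0.4934 without E18 cornea replicate 1 (range 0.4934 to -0.5135). A change of direction counted as reversed only where a value was called in either fit, so the 4877 include uncalled values that crossed 0. ENO1, for one, went from -0.07 to 0.09 without E18 cornea replicate 1. Depth limits genes near 3 reads, and a gene listed at 0 in all libraries may not have been measured.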
